A study of Mus musculus with 2 samples.

Results

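RNA of the mouse neural stem cell line NE4C was sequenced from cells in normal culture (the control) and from cells exposed to HTL. HTL is homocysteine thiolactone, a homocysteine derivative that modifies lysines in proteins. Both cultures were of the same line, grown in Eagle MEM on plates coated with poly-L-lysine, and neither the dose nor the duration of HTL is given in the labels. Starvation in low-serum medium before HTL is described for the study's experiments on protein modification. Whether the cultures sequenced here were starved is not stated. With a single library on either side (n = 1 each), none of the differences can be set against replicates, and every interval covers counting error only. The genes described here are Txnip, its arrestin-domain relatives Arrdc1, Arrdc2, Arrdc3 and Arrdc4, and the transcription factor genes Mlx and Mlxip. They were found by symbol, and all 7 were among the 16803 genes of the table. The group was selected on the strong rises of Txnip and Arrdc4 in this same comparison. The values of the 7 genes are therefore a description, given without a test.

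Txnip encodes thioredoxin-interacting protein, which binds reduced thioredoxin and lowers the uptake of glucose into cells. It belongs to the alpha-arrestins, as do the proteins of the Arrdc genes. Alpha-arrestins share the arrestin fold and act as adaptors that bring ubiquitin ligases of the Nedd4 family to proteins of the cell membrane. Mlxip encodes MondoA, which pairs with Mlx. The pair is known to enter the nucleus when sugar phosphates are abundant and to bind carbohydrate response elements, which consist of E-box-like motifs, in the promoters of Txnip and Arrdc4.

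Promoter windows of the genes were taken from RefSeq (build GRCm38.p6), from 250 bases before the start of a gene to 50 after it. All 7 genes had a window, and Arrdc3 had windows at 3 annotated starts. The windows of Txnip (chr3:96557707-96558006, plus strand) and Arrdc4 (chr7:68749189-68749488, minus strand) are printed because these 2 genes had the largest ratios of the group. Capitals mark the E-box CACGTG, its variant CACGAG and the CCAAT box, the latter on either strand. Other matches to CACGNG are left in lower case. The Mlx window (chr11:101087238-101087267, plus strand) is a stretch around its E-box.
Txnip: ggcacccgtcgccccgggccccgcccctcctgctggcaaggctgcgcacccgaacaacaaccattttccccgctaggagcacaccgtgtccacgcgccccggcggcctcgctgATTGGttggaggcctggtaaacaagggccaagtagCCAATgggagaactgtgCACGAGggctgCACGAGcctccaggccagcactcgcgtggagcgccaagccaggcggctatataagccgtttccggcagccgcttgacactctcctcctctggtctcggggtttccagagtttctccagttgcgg
Arrdc4: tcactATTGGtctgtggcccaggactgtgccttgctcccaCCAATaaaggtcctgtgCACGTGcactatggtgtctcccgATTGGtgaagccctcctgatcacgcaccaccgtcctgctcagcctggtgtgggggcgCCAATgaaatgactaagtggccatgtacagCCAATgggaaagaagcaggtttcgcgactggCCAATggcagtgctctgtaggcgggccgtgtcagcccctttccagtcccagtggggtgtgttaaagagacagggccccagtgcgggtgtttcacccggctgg
Mlx: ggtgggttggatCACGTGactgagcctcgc

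In the Txnip window, CACGAG occurred at 85 and again at 74 bases before the start, so that 5 bases lay between the 2 copies. A pair of CACGNG motifs with this spacing, on either strand, was found in 16 of the 32851 promoter windows of the mouse, a share of 0.0487%. That search was chosen after the Txnip window had been read. A pair of the E-box CACGTG with the same spacing was in 0 windows. A single CACGTG was in 7.15% of all windows and, among the 7 genes, in those of Arrdc4 (193 bases before the start) and Mlx (40 bases before it). CACGAG on either strand was in 6.47% of all windows, and beside Txnip in those of Arrdc1 and Arrdc2.

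The CCAAT box, the motif bound by the factor NF-Y, was also searched on both strands after the windows had been read. The Arrdc4 window held 6 copies, and 26 windows (0.0791%) held at least that many, while 37.4% held at least 1. Txnip, Mlx and Mlxip had 2 copies each and Arrdc2 had 3. Arrdc1 had 0, and of the 3 windows of Arrdc3, 2 overlapping ones held a copy. Letters in a window are a description and no measurement of binding.

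**Figure D1:**
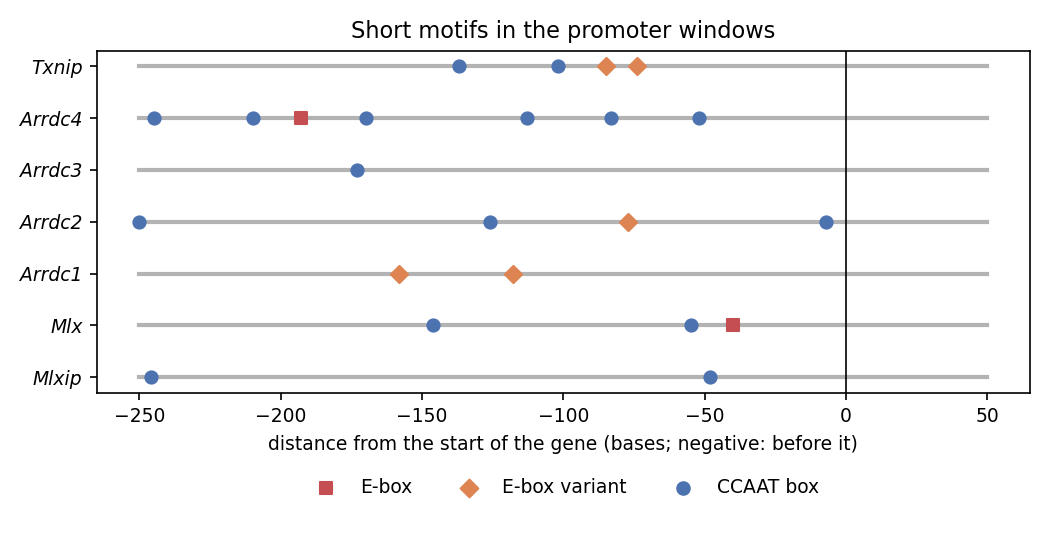
Positions of short motifs in the promoter windows of the 7 genes, as the distance in bases from the annotated start (x axis; negative before it), with 1 window per gene (for Arrdc3, the first of 3). Squares are the E-box CACGTG, diamonds the variant CACGAG and circles CCAAT, on either strand; the 2 diamonds of Txnip stand 85 and 74 bases before the start, and Arrdc4 carries 6 circles.

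The deposited reads are estimates per gene and add up to 10350665 in the control and 9102076 in the HTL library after rounding. A log2 ratio compares the shares of reads of a gene in the 2 libraries, with 0.5 read added. The median log2 ratio of the 13442 genes with at least 10 reads was -0.14, and other scalings raised all ratios by 0.093 to 0.14. Of 8 markers of neural stem cells, 7 had at least 10 reads in each library. Their summed level was 196.2 FPKM in the control and 132.2 FPKM in the HTL library, and that of 4 neuron markers was 20.1 and 27.7 FPKM. Members of both lists differed in direction: Vim (-1.01) and Sox2 (-1.46) had lower log2 ratios than Nes (-0.059) and Msi1 (0.033), and among neuron markers Tubb3 was at 0.60, Map2 at -0.60 and Dcx at -1.40. Marker lists of astrocytes, oligodendrocyte lineage, fibroblasts, leukocytes and endothelium added up to between 0.72 and 4.72 FPKM, with Gfap at 2 and 0 reads and Ptprc, Cdh5 and Olig2 not analysed here. These sums rest on the listed markers that the table held, 2 of 4 for astrocytes and for leukocytes and 3 of 4 for the others. In bulk RNA, fewer cells of a type and less RNA per cell cannot be told apart, and the part of these marker levels in the results was not tested.

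HTL-treated NE4C held far more Txnip, Arrdc4 and Arrdc3 RNA than the control, while Arrdc1 and Arrdc2 stayed at low levels and Mlx and Mlxip were close to their control levels. Of the 7 genes, 3 had a log2 ratio of at least 1, as had 4.72% of all genes tested, and 0 had one of at most -1, as had 12.2% of all genes tested. Since the group was selected on this comparison, nothing is read from these counts.

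Txnip (gene ID 56338), on the plus strand of chromosome 3 from 96361880 to 96365806 in build NCBIM37, counted 23 reads in the control and 621 after HTL. Its level per length was 0.79 FPKM in the control and 24.2 FPKM after HTL. The share of reads was 30.0-fold higher after HTL (95% interval 20.3 to 48.8, exact Clopper-Pearson), a log2 ratio of 4.91 (4.34 to 5.61). By FPKM, Txnip stood at percentile 13.5 of the genes tested in the control and at percentile 78.4 after HTL. Among all genes tested, 2 genes, Txnip included, climbed by at least that many percentiles. Its log2 ratio ranked at 2 from the top among the 8528 genes whose mean over both libraries was at least 100 reads.

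Exons of Txnip overlap those of Gm15441, a long non-coding gene on the opposite strand, over 606 bases, which is 20.0% of the exon bases of Txnip and 36.2% of those of Gm15441. Gm15441, named for this overlap after its values were seen, had 9.05 estimated reads in the control and 132.1 after HTL. Its log2 ratio was 3.98 (3.09 to 5.22). Whether the counting used strand is not given in the sources used here, so reads in the shared stretch cannot be told apart. With the reads of both genes summed (32 and 753), the log2 ratio was 4.72 (4.23 to 5.30).

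Arrdc4 (gene ID 66412; chromosome 7, 75881931 to 75894127, minus strand), whose protein like Txnip is known to lower glucose uptake, had 88 reads in the control and 494 after HTL. Its levels were 5.73 and 34.6 FPKM, and its share of reads was 6.35-fold higher (5.08 to 8.10), a log2 ratio of 2.67 (2.34 to 3.02). In the HTL library it was the most abundant of the 7 genes per length. No exon of another annotated gene overlaps it.

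Arrdc3 (gene ID 105171; chromosome 13, 81022645 to 81035296, plus strand), known for steering the beta-2 adrenergic receptor and integrin beta-4 to ubiquitination, had 288 and 960 reads. Its levels were 6.73 FPKM in the control and 25.4 FPKM after HTL. The share of reads was 3.79-fold higher (3.32 to 4.34), a log2 ratio of 1.92 (1.73 to 2.12). Counting intervals of the log2 ratios of Txnip, Arrdc4 and Arrdc3 did not overlap each other.

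Arrdc1 (gene ID 215705; chromosome 2, 24780872 to 24790772, minus strand), which recruits the ESCRT protein Tsg101 to bud vesicles from the plasma membrane, had 14 and 18 reads. Its log2 ratio of 0.53 had an interval from -0.54 to 1.67. Arrdc2 (gene ID 70807; chromosome 8, 73359054 to 73363619, minus strand), a less studied relative, counted 29 and 34 reads, and its log2 ratio was 0.41 (-0.34 to 1.18). Levels of both genes lay between 0.80 and 1.59 FPKM in the 2 libraries. At this depth a difference was not detectable for either gene, and both intervals still hold a log2 ratio of 1.

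Mlx (gene ID 21428; chromosome 11, 100948591 to 100953521, plus strand), which encodes the partner through which MondoA binds DNA, had 391 and 329 reads, or 20.1 and 19.2 FPKM. Its log2 ratio was -0.064 (-0.28 to 0.15), and it was above 0 under each other scaling (0.066 with TMM). Exons of Mlx share 385 bases with Psmc3ip on the opposite strand, which had 228 and 120 reads. Mlxip (gene ID 208104; chromosome 5, 123844807 to 123915306, plus strand) had 1164.5 and 874.06 estimated reads, or 17.9 and 14.6 FPKM. Its exons share 264 bases (3.2%) with Gm15747 on the opposite strand, which was not analysed here. The log2 ratio of Mlxip was -0.23 (-0.36 to -0.10). Log2 ratios were lower for longer transcripts across the table, and Mlxip, with a length of 6485 bases, lies in the longest of 10 bins. Relative to the median of that bin (-0.38) its value was 0.15, so its direction depends on the reference chosen.

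**Figure D2:**
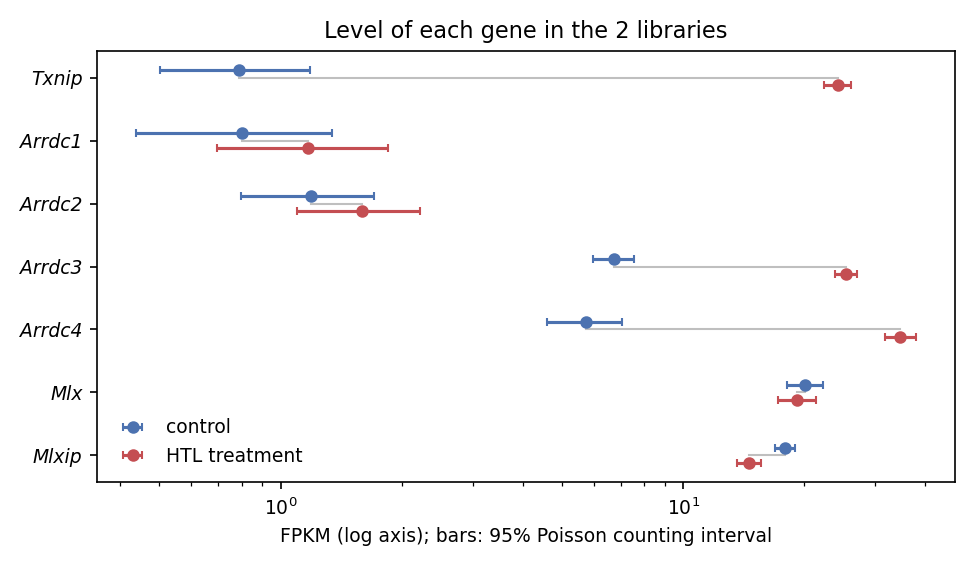
FPKM (x axis, log scale) of the 7 genes in the control library (blue) and the HTL treatment library (red), with 95% Poisson counting intervals as bars. Txnip moves from 0.79 to 24.2 FPKM, Arrdc4 from 5.73 to 34.6 and Arrdc3 from 6.73 to 25.4, while the bars of both libraries overlap for Arrdc1, Arrdc2 and Mlx.

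The order of the genes by FPKM differed between the libraries. In the control, Mlx and Mlxip stood highest, followed by Arrdc3 (6.73) and Arrdc4 (5.73), and then by Arrdc2 (1.19), Arrdc1 (0.80) and Txnip (0.79). Counting intervals overlapped between Mlx and Mlxip, between Arrdc3 and Arrdc4, and among the last 3 genes. In the HTL library the order was Arrdc4 (34.6), Arrdc3 (25.4), Txnip (24.2), Mlx (19.2), Mlxip (14.6), Arrdc2 (1.59) and Arrdc1 (1.17). There the intervals of Arrdc3 and Txnip overlapped, as did those of Arrdc2 and Arrdc1, and the other neighbours lay apart.

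The summed level of the 5 alpha-arrestin genes was 15.2 FPKM in the control and 87.1 FPKM in the HTL library, 5.71 times as high. Txnip made up 5.18% of this sum in the control and 27.8% after HTL. The share of Arrdc4 was 37.6% and 39.8%, and that of Arrdc3 was 44.2% and 29.2%. Arrdc1 made up 5.25% of the sum in the control and 1.34% after HTL, and Arrdc2 made up 7.81% and 1.83%, so in the control each had a share no smaller than that of Txnip. The sum of Mlx and Mlxip was 38.0 FPKM in the control and 33.8 FPKM after HTL.

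**Figure D3:**
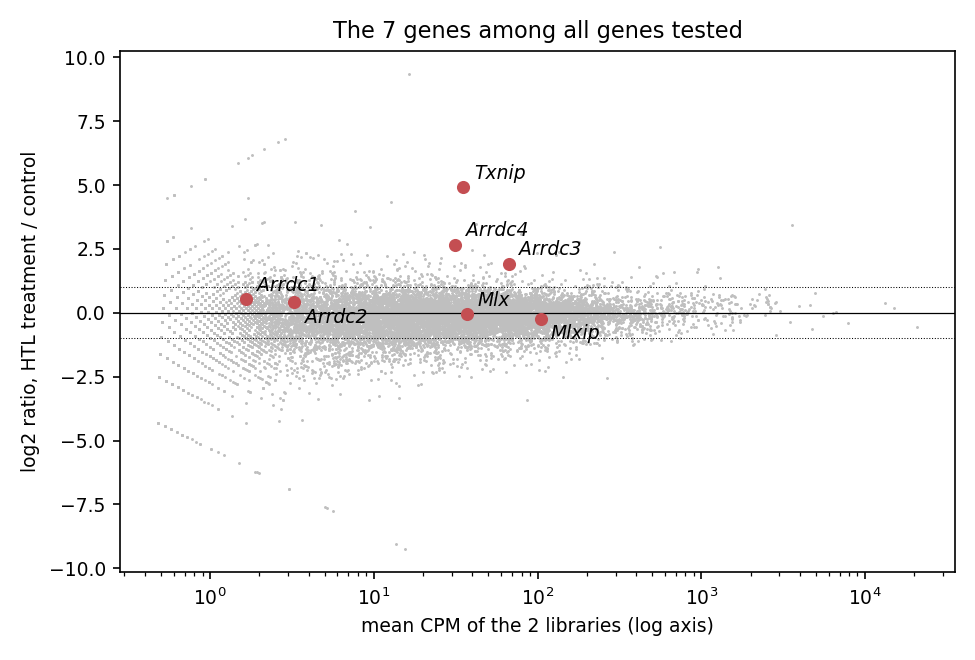
Log2 ratio of HTL treatment to control (y axis) against the mean CPM (reads scaled to equal library totals) of the 2 libraries (x axis, log scale) for the 13442 genes tested (grey) and the 7 genes described (red); dotted lines mark log2 ratios of -1 and 1. Txnip (4.91), Arrdc4 (2.67) and Arrdc3 (1.92) lie above the upper dotted line, and the other 4 genes between the lines.

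Genes with a pattern most like that of Txnip and Arrdc4 over the 2 libraries were taken as those nearest in log2 ratio, among genes averaging at least 100 reads. Nearest to Txnip were Trim66 (4.33; 12 and 221 reads), Klf10 (3.49; 71 and 706 reads) and the endoplasmic reticulum (ER) chaperone gene Hspa5 (3.45). The gap to Txnip was 0.58 for Trim66, whose interval (3.55 to 5.36) overlapped that of Txnip, and 1.42 for Klf10, whose interval did not. Nearest to Arrdc4 were Manf (2.59), Herpud1 (2.78) and Atf3 (2.44), at distances of 0.074, 0.11 and 0.23. All 3 are genes known to be induced by ER stress. Likeness in 1 ratio says only that the sizes of the differences were similar.

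Genes that act with the 7 were compared next, in 8 lists. A gene was called when its adjusted p was at most 0.001 in an exact binomial test (two-sided, over all genes tested) of its reads and its absolute log2 ratio was at least 1. The test compares these 2 libraries, not the conditions. Of all genes tested, 10.8% were called, 2.81% as higher and 7.98% as lower after HTL. Log2 ratios above 0 were held by 5549 of the 13442 genes, so most genes lay below 0 under this scaling.

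Of the 8 factors that pair with Mlx or Max, 7 had a log2 ratio below 0, among them Mxd1 (-0.0071), which was above 0 under each other scaling. In all, 2 were called lower, 0 were called higher, and the median log2 ratio was -0.77. With an assumed coefficient of variation of 0.2, 1 call was left, and 0 with 0.4. Mlxipl, which encodes ChREBP, the sugar-responsive paralogue of MondoA, counted 34 reads in the control and 13 after HTL. Its log2 ratio of -1.17 (-2.25 to -0.24) was not called. At 0.89 and 0.39 FPKM it was far less abundant than Mlxip in both libraries. Mnt, a repressor that pairs with Mlx and Max, fell from 628 to 243 reads, a log2 ratio of -1.18 (-1.40 to -0.97), and its call was lost relative to its length bin (-0.98). Myc, which competes for Max, had the largest called fall of the list, from 538 to 111 reads (-2.09). Max, the shared partner of this network, had 715 reads in the control and 556 after HTL, and its log2 ratio of -0.18 (-0.34 to -0.02) was not called.

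Other known targets of MondoA or ChREBP differed in direction. Of 15 listed genes, 13 were tested, 2 were called higher and 1 lower, and the median log2 ratio was -0.063, which was above 0 under each other scaling. Of the 3 calls, 1 rise was left with an assumed coefficient of variation of 0.2, and 0 with 0.4. Klf10, a Krüppel-like repressor gene, rose from 2.23 to 25.2 FPKM, a log2 ratio of 3.49 (3.15 to 3.87). Scd1, a fatty acid desaturase gene named after its value was seen, rose by 1.09 (0.9995 to 1.18) on the log2 scale. Hk2, which encodes the hexokinase that traps glucose in the cell, fell from 2720 to 1065 reads, a log2 ratio of -1.17 (-1.27 to -1.06). Relative to the median of its length bin, Hk2 was at -0.89 and its call was lost. Pfkfb3, a driver of glycolytic flux, had a log2 ratio of -0.62 (-0.86 to -0.39), short of the call.

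Glucose transporters, the membrane proteins that Txnip and Arrdc4 are known to act on, lay below 0 in 6 of the 7 genes tested and above 0 in Slc2a3. Of these 6, Slc2a10 was above 0 under each other scaling and Slc2a6 with the median of ratios. Directions rested on few reads for Slc2a12 (9 in the control and 1 after HTL), Slc2a10 (8 and 7) and Slc2a6 (20 and 16). In all, 1 was called lower and 0 higher, with a median of -0.44. Slc2a1, which encodes GLUT1, had 1114 and 558 reads, or 41.7 and 23.7 FPKM, a log2 ratio of -0.81 (-0.96 to -0.66). Slc2a3, which encodes GLUT3, had 98.4 and 168.4 FPKM, a log2 ratio of 0.78 (0.72 to 0.84). Neither reached a log2 ratio of 1 in size. The called fall was Slc2a4, the gene of the insulin-responsive GLUT4, on few reads (50 and 12). Its call was lost with FPKM + 1, with a mean of at least 50 reads required, at a log2 cutoff of 2 and with an assumed coefficient of variation of 0.2.

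None of the 8 thioredoxin system genes was called, with a median log2 ratio of -0.23. Txn1, which encodes the cytosolic thioredoxin that Txnip binds, had 192.9 FPKM in the control and 175.8 FPKM after HTL, a log2 ratio of -0.13 (-0.23 to -0.037) that was above 0 with the median of ratios scaling. Per length it was therefore more abundant than Txnip in both libraries. Txnrd1, the reductase that recycles it, had 107.6 and 135.1 FPKM, a log2 ratio of 0.33 (0.26 to 0.39).

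Of the ubiquitin ligases and adaptors of the Nedd4 family, 10 were tested and 0 were called, with a median of 0.16. Nedd4 was the most abundant of those named, at 451.7 and 428.3 FPKM, with a log2 ratio of -0.074 (-0.0999 to -0.048) that was above 0 under each other scaling. Itch and Wwp1, both known to bind alpha-arrestins, had log2 ratios of -0.42 (-0.55 to -0.29) and -0.82 (-1.06 to -0.59), and Nedd4l had one of 0.54 (0.26 to 0.83). Of the 5 ESCRT genes of vesicle budding, Tsg101, the partner of Arrdc1, was called, with 888 reads in the control, 381 after HTL and a log2 ratio of -1.03 (-1.21 to -0.86). It fell short of the call under each other scaling. Other arrestins were Arrb1 and Arrb2, the beta-arrestin genes, with log2 ratios of 0.18 (-0.091 to 0.45) and 0.57 (0.39 to 0.76), neither called. Arrdc5 was not analysed here.

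Regulators of the ER stress response, some of them known to act upstream of Txnip, had the highest median of the 8 lists, 1.60. Of 6 genes, 4 were called higher and 0 lower. The lists were chosen with earlier results of these data known, so this rank and these calls are a description and no independent evidence. Atf5, a transcription factor known to activate Txnip in stressed beta cells, rose from 339 to 1509 reads, a log2 ratio of 2.34 (2.17 to 2.51). The other called genes, named after their values were seen, were Ddit3 (2.15), Xbp1 (1.78) and Atf4 (1.41), all transcription factors of the ER stress response. With an assumed coefficient of variation of 0.2 between replicates, 2 of the 4 calls were left, and 0 with 0.4. The sensor genes Ern1, which encodes IRE1, and Eif2ak3, which encodes PERK, had log2 ratios of 0.27 (-0.18 to 0.73) and -0.21 (-0.46 to 0.04) and were not called. The part of this response in the levels of Txnip, Arrdc4 and Arrdc3 was not tested.

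**Figure D4:**
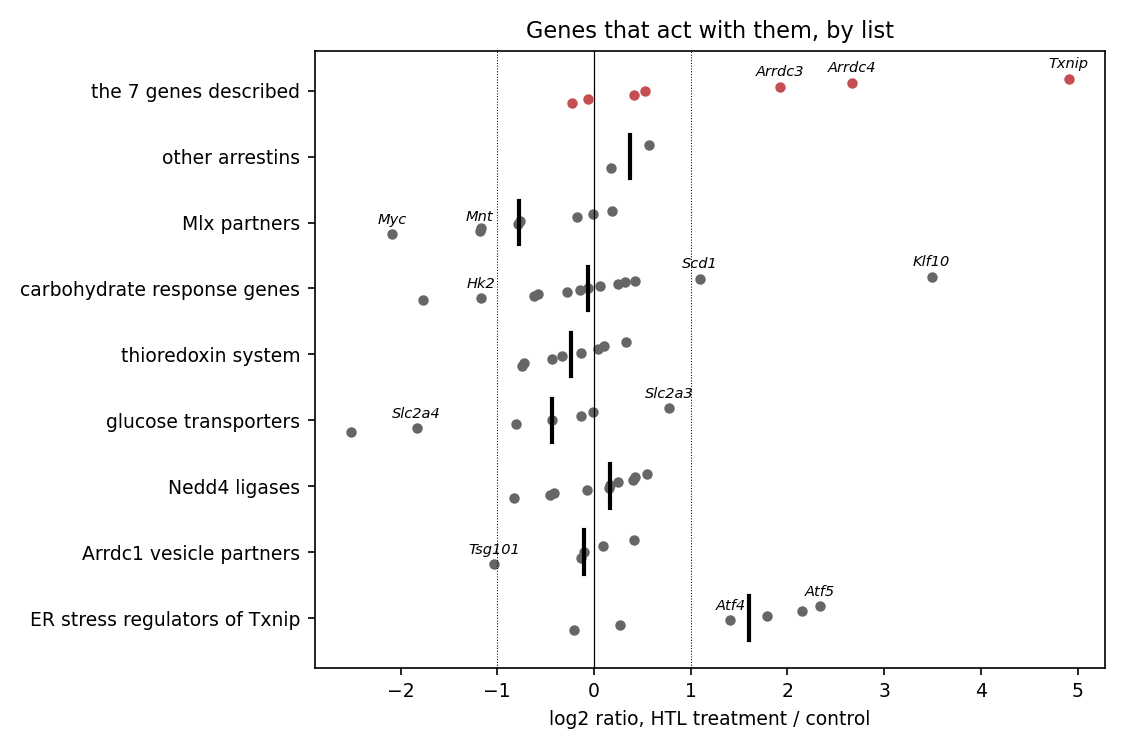
Log2 ratio of HTL treatment to control (x axis) for the 7 genes described (red) and for the tested genes of 8 lists (grey points, 1 per gene), with black bars at list medians and dotted lines at -1 and 1. Klf10 (3.49) is the only grey point past 3, and the ER stress list has the highest median (1.60).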

How the data were processed

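Total RNA of NE4C cells was sequenced on a BGISEQ-500 from 1 control and 1 HTL-treated culture, grouped by sample title. The authors mapped reads to the mouse genome (mm9 per the submitters' processing notes), estimated reads per gene with software that the methods spell RESM, read here as RSEM, and deposited 1 table. The estimated counts deposited by the authors are not normalized, and the FPKM values deposited by the authors scale them to transcript length and library size. The table gives 1 length per gene in bases, and FPKM does not follow from it for every gene. Hecw2, of the Nedd4 list, had an FPKM ratio of HTL to control of 1.11, while its ratio of read shares was 0.73. Their lowest value is 0.01. The authors' deposited log2 ratio, p-value and FDR columns hold their own comparison and were not used. The mapper, versions, annotation release and use of strand are not given in the sources used here.

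Counts were rounded (10350665 control and 9102076 HTL reads). The 13442 genes whose reads in both libraries summed to at least 10 (3361 others were left out) entered a two-sided exact binomial test against library totals with Benjamini-Hochberg adjustment (SciPy 1.17.1). Log2 ratios used 0.5 read added and 95% Clopper-Pearson intervals. Intervals of FPKM are exact Poisson intervals of the reads. As reads carried no molecular identifiers, they may repeat a molecule, and all of these cover counting error only. A count of 0 allows up to 3 reads (0.29 CPM in the control, 0.33 CPM in the HTL library). Neither the quasi-likelihood test of edgeR nor the test of DESeq2 could be fitted with n = 1, so the binomial test took their place. The binomial test was checked on simulated counts drawn without variation between replicates, so that check says nothing about such variation. Alternatives were other scalings (TMM and upper quartile of edgeR 4.0.16, median of ratios of DESeq2 1.42.0), other filters, added values and cutoffs, ratios relative to 10 length bins, and the exact test of edgeR with an assumed coefficient of variation. Motifs were searched on both strands, and the CCAAT box, the E-box variant and the E-box-like pair of Txnip were chosen after the windows were read.

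The genes, the 8 lists and the naming rule were chosen with earlier results of these data known. Named were the 7 genes, fixed members of each list, the largest called rise and fall of each list, and the 3 genes nearest in log2 ratio to Txnip and to Arrdc4 with a mean of at least 100 reads. Gene positions and exon overlaps are from the NCBIM37 (mm9) annotation, and promoter windows from RefSeq GRCm38.p6, so their coordinates cannot be compared. The deposited table holds no coordinates. Protein sequences were not used here.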

Additional observations from a re-analysis of the deposited data

How the results depend on the processing

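No paired analysis was possible because there was a single library on either side, which also means that none could be left out. Over all alternatives run, the log2 ratio ran from 3.82 to 5.04 for Txnip, from 2.41 to 2.80 for Arrdc4, from 1.77 to 2.12 for Arrdc3, from 0.27 to 0.66 for Arrdc1 and from 0.24 to 0.54 for Arrdc2. Adding the reads of Gm15441 to Txnip was chosen after the data were seen. Values outside the counting interval were 3.82 for Txnip with FPKM + 1, because the added value shrinks low levels, 2.12 for Arrdc3 relative to its length bin, and for Mlxip -0.099 with TMM, -0.093 with the median of ratios and 0.15 relative to its length bin. List medians stayed within the median counting interval of their genes.

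Of all genes tested, 1450 were called (378 higher, 1072 lower). TMM gave 552 higher and 800 lower, the median of ratios 559 and 788, the upper quartile 498 and 860, and ratios relative to the length bin 513 and 775. The count was 816 with FPKM + 1, 2280 with the fold alone, 287 at an absolute log2 ratio of at least 2, 5195 with no cutoff on the log2 ratio, 120 in the exact test of edgeR when replicates are assumed to vary by a coefficient of 0.2 and 6 with 0.4. These rules admit more or fewer genes by construction.

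With a coefficient of variation of 0.2, calls were 2 ER stress regulators, 1 Mlx partner, 1 carbohydrate response gene, 0 glucose transporters and 0 vesicle partners of Arrdc1, and with 0.4 each of these lists had 0. At a log2 ratio of at least 2 there were 2, 1, 1, 0 and 0. With no cutoff on the log2 ratio there were 4 Mlx partners, 6 carbohydrate response genes, 3 thioredoxin genes, 3 glucose transporters, 6 Nedd4 ligases, 2 vesicle partners and 1 other arrestin. Glucose transporters had 2 calls with the fold alone, and 0 with FPKM + 1 or a mean of at least 50 reads, which removed Slc2a4. Relative to length bins, 1 Mlx partner was called, without Mnt, and 2 carbohydrate response genes, without Hk2. Vesicle partners had 0 calls under TMM, the median of ratios, the upper quartile and relative to length bins, since Tsg101 lay just past the cutoff.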

Other observations

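Apart from Txnip, 14 other genes had a pair of CACGNG motifs 5 bases apart in a promoter window, and 8 of them were tested. None of the 8 was called by the exact binomial test in either direction, beside 10.8% of all genes tested. Their log2 ratios ran from -0.64 for Rbmxl1 to 0.94 for Man2b2, a lysosomal mannosidase gene with 198 reads in the control and 334 after HTL, with a median of 0.31 and 5 of 8 above 0. Of the others, named after their values were seen, Fnip1, which encodes a partner of folliculin in nutrient sensing, had 479 and 381 reads (-0.14), and Nfkb2 had 116 and 126 reads (0.30). The search was chosen after the Txnip window had been read and is a description of letters in RefSeq windows.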
